A study of Mus musculus with 336 samples.

Results

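Wild-type (WT) mouse liver slices were compared between the third and the first day of a time course in culture. The comparison used 8 libraries of day 3, labelled CT48 to CT69, against 8 libraries of day 1, labelled CT00 to CT21, and it holds 16 of the 120 libraries of the series. Each day-3 library was paired with the day-1 library of the same circadian phase. A daily rhythm that repeated unchanged would then contribute equally to both days, but whether rhythms kept their period and height was not tested. Genes were kept where the mean over the 16 libraries was at least 1 FPKM (sequenced fragments divided by transcript length and by library size), which left 14252 genes.

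The series followed daily rhythms of mRNA in mouse skin fibroblasts and liver slices, WT and Bmal1-/-, the latter lacking a core activator of the circadian clock. The slices came from adult mice on a C57BL/6 background, were about 500 micron thick and lay on membrane discs in 24 well plates. All slices of both genotypes were pulsed for 15 min with 100 nM dexamethasone, a glucocorticoid that synchronises clocks, washed, and kept at 37 °C in constant darkness in HEPES-buffered medium with 10% serum. Sampling started 48 h after the pulse (CT00) and went on every 3 h, so day 1 was not fresh liver: its first slices had already spent 48 h in culture, and the last slices of day 3 were taken 117 h after the pulse. The labels state 3 pieces per time point and list 3 runs, but the deposited table has 1 FPKM column per time point and genotype. The unit of replication here is therefore the time point (n = 8 per day). The labels do not say whether time points came from separate animals, so p-values measure only the spread between these columns, which may be technical.

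The liver lobule is built of hepatocytes, which secrete most plasma proteins, clear drugs through cytochrome P450 enzymes, make bile acids and urea, and release glucose. Between them lie Kupffer cells, the resident macrophages of the sinusoids, together with sinusoidal endothelium and stellate cells, which store retinoids and can turn into matrix-producing myofibroblasts. Cultured hepatocytes are known to lose part of their specialised expression with time, and cut tissue passes through an inflammatory and a repair phase.

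The label liver was borne out by albumin (Alb), transthyretin (Ttr) and apolipoprotein A1 (Apoa1), whose day-1 medians were 5742, 792 and 2141 FPKM after rescaling. Cps1, a mitochondrial urea cycle enzyme that is abundant in hepatocytes, had a median of only 2.29 FPKM. Lymphocyte RNA was near the floor: of the 9 markers, Ncr1 was listed at 0 in 14 of the 16 libraries, and Cd8a and Ms4a1 in 13 each. CT66 and CT69 stood apart: their median Pearson correlation, on the log2 scale, with the other WT libraries was 0.861 and 0.858, against 0.911 to 0.937 for the other 22. The same libraries held the most macrophage marker RNA, with summed levels of 9 markers of 4090 and 4076 FPKM, whereas the other 6 libraries of day 3 ran from 639 to 1762 FPKM and those of day 1 from 221 to 930.5 FPKM. They also held the least hepatocyte marker RNA, at 2449 and 1001 FPKM for the sum of 6 markers, against 3925 to 9780.4 FPKM in the other 6 libraries of day 3 and 5344 to 20506 FPKM on day 1. The main counts are therefore also given without CT66, CT69 and their day-1 partners CT18 and CT21, called the 6-pair set below. Where a named call was lost in that set, the adjusted p of the 6 pairs follows the one over all 8. The part of the macrophage and hepatocyte sums, or of these 2 libraries, in single results was not tested beyond that.

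**Figure D1:**
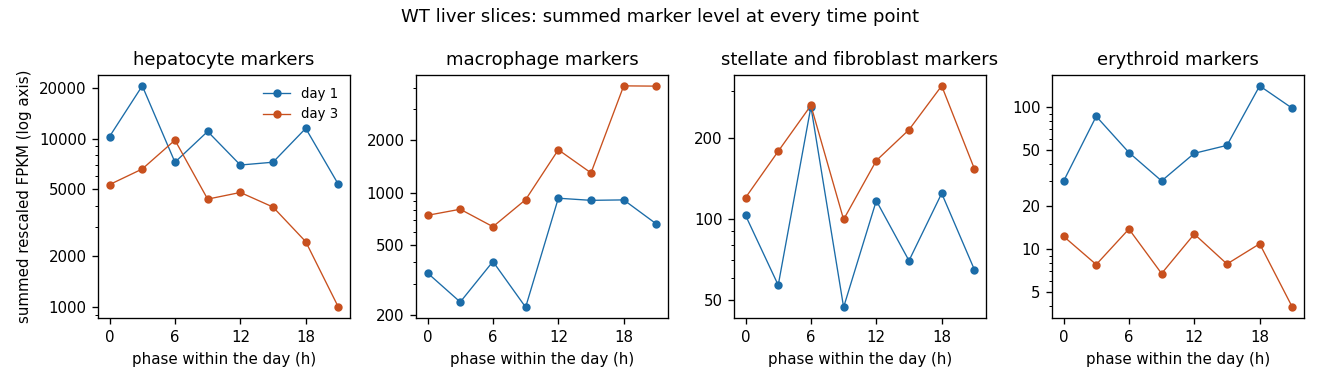
Summed rescaled FPKM (log axis) of hepatocyte, macrophage, stellate and fibroblast, and erythroid markers against the phase within the day (h) in WT slices, 1 point per library, day 1 in blue and day 3 in orange. The macrophage sum of day 3 lay above that of day 1 at every phase and reached 4090 FPKM at CT66, while the erythroid sums of the days did not overlap.

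Between day 1 and day 3, 21 of 33 genes of secreted hepatocyte proteins, 4 hemoglobin genes, the serum amyloids Saa1 and Saa2, and the chemokines Cxcl1, Cxcl2 and Cxcl5 fell. Macrophage markers (14 of 18), collagens (8 of 19) and the cytochrome P450 genes Cyp1a1, Cyp1a2 and Cyp1b1 rose. On log2(FPKM + 1) values with phase as a block, limma called 903 genes higher on day 3 (6.34% of the genes tested) and 1025 lower (7.19%) at a Benjamini-Hochberg adjusted p below 0.05. A change of at least 1 log2 unit was reached by 144 of the higher genes (1.01%) and 168 of the lower ones (1.18%). Of the called genes, 633 higher and 780 lower ones moved in that direction in all 8 pairs. The calls were made on these same pairs, so this is a description and not separate support. The share over all genes tested was not counted. At an unadjusted p below 0.05 there were 4594 genes, where 713 would be met by chance, and the median change over all genes was -0.01. A log2 change of 1 is a 2-fold change. In the 6-pair set the calls numbered 252 higher (1.78%) and 358 lower (2.52%, or 4.30% either way), and 218 and 328 of the original calls remained. All 889 higher and 1023 lower genes that could be tested again kept their direction, with medians of 0.47 and -0.41 against 0.57 and -0.46 before. The 6 pairs are part of the 8 that gave the calls, so a kept direction is not separate support. Leaving out 1 pair moved the counts most for the 9 h pair (CT09 and CT57), to 433 higher and 550 lower; without the 3, 12, 18 or 21 h pair 544, 549, 530 and 486 genes were higher, and without the 3, 12, 15 or 21 h pair 671, 622, 650 and 591 were lower.

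**Figure D2:**
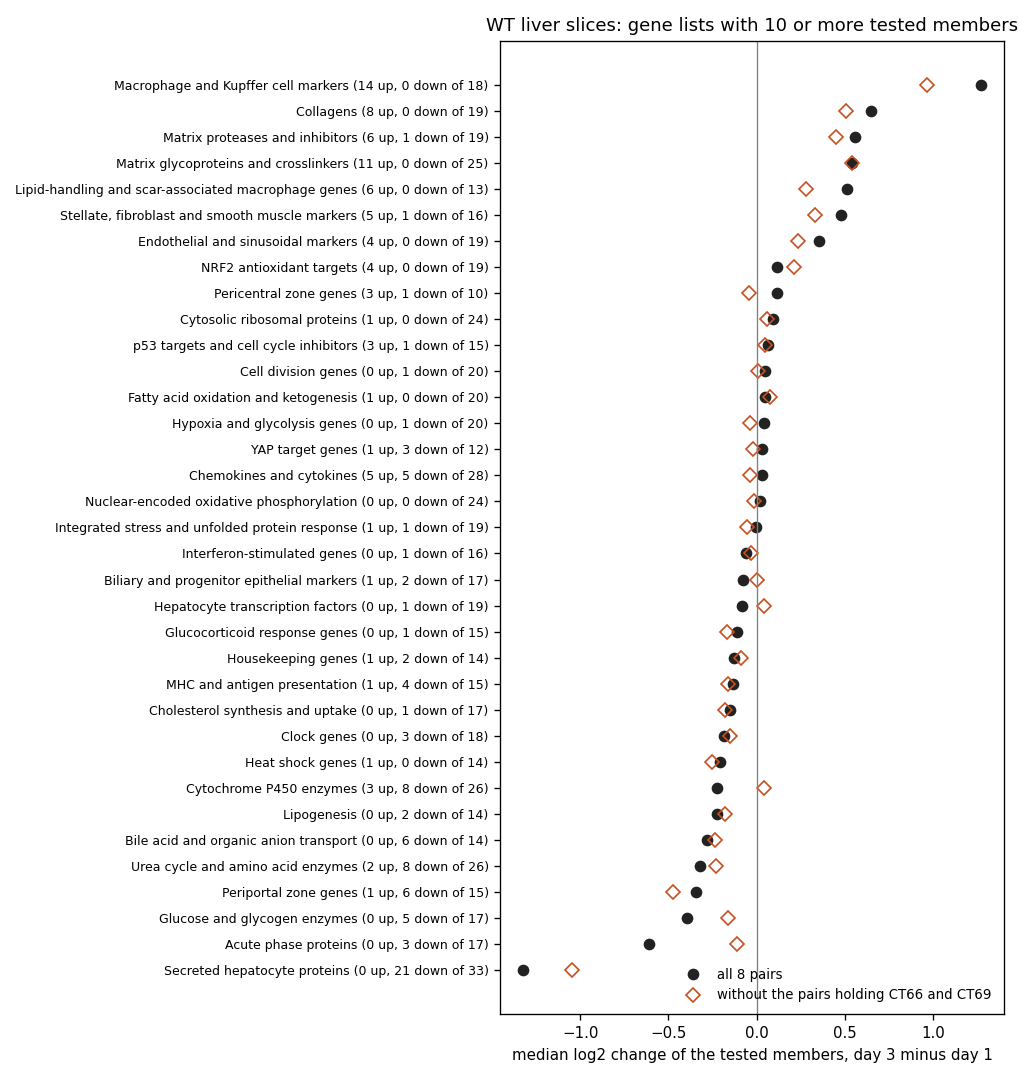
Median log2 change (day 3 minus day 1) of the tested members of each gene list with at least 10 tested members, over all 8 pairs (filled circles) and without the pairs holding CT66 and CT69 (open diamonds), with the counts called in brackets. Secreted hepatocyte proteins lie lowest at -1.32 and macrophage and Kupffer cell markers highest at 1.27, each closer to 0 without CT66 and CT69.

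Secreted plasma proteins were the hepatocyte group with the largest fall. Of 33 tested, 21 fell and none rose, with a median change of -1.32; in the 6-pair set, 8 fell and the median was -1.04. Serpinc1 (antithrombin, the main inhibitor of thrombin) ran from 199 to 868 (median 335) FPKM on day 1 and from 37.2 to 211 (median 93.0) FPKM on day 3. The days overlapped only at their edges, and the gene fell by 1.98 ± 0.28 log2 units (value ± standard error here and below; adjusted p = 0.00875). Apoh (beta-2-glycoprotein I, a phospholipid-binding plasma protein) fell by 2.05 ± 0.29 (adjusted p = 0.00881), from a median of 265 FPKM (148 to 716) to one of 71.4 FPKM (25.6 to 168). Itih1, a heavy chain that binds hyaluronan in the matrix, fell by 1.81 ± 0.26 (adjusted p = 0.00875), from a median of 23.9 FPKM (11.3 to 63.5) to one of 6.87 FPKM (1.41 to 16.7). Other members that passed the test were Alb (fell by 1.64, adjusted p = 0.0133; 6 pairs, 0.0601), Ttr (fell by 1.51, adjusted p = 0.012; 6 pairs, 0.0567), prothrombin F2 (fell by 1.56, adjusted p = 0.0112) and Apob, the core protein of very low density lipoprotein (fell by 1.32, adjusted p = 0.0314; 6 pairs, 0.0753). Apoa1, of high density lipoprotein, did not pass at -0.39 ± 0.32 (adjusted p = 0.426), nor did the fibrinogen chains Fga, Fgb and Fgg, at -0.56, -0.35 and -0.58 (adjusted p = 0.475, 0.669 and 0.4). In whole slices, fewer cells of a type and less RNA per cell cannot be told apart, and the part of the hepatocyte marker sum in these changes was not tested.

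Major urinary proteins, pheromone carriers secreted by the liver, were among the genes that fell furthest. Mup7 (chr4:60066469-60070475, minus strand, GRCm38) had 149 to 424 (median 259) FPKM on day 1 and 13.5 to 78.4 (median 37.3) FPKM on day 3. Every day-3 library lay below every day-1 library, and Mup7 fell by 2.97 ± 0.28 log2 units (adjusted p = 0.00386), with a change of -2.64 in the 6-pair set (adjusted p = 0.0253). Mup14 fell by 2.47 ± 0.28 (adjusted p = 0.00612), from a median of 22.1 FPKM (17.0 to 44.2) to one of 3.46 FPKM (1.39 to 10.5). Reads of the Mup genes can be split among near-identical copies, so values of single copies are uncertain. Ces1c, a secreted carboxylesterase of plasma from a family of close copies, fell by 2.26 ± 0.31 (adjusted p = 0.00875), from a median of 137 FPKM (86.2 to 371) to one of 28.9 FPKM (11.6 to 72.8). Slpi, a secreted inhibitor of neutrophil proteases, fell by 2.41 ± 0.40 (adjusted p = 0.0113), from a median of 764 FPKM (319.6 to 1305) to one of 147 FPKM (36.4 to 296). For Mup14, Ces1c and Slpi too, no library of day 3 reached the lowest of day 1. Genes were named with these same values known, so days without overlap are not separate support, here and below. How many of all genes tested had such days was not counted.

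Genes of uptake, bile acid handling and glucose output fell as well. Of 14 tested genes of bile acid and organic anion transport, 6 fell and none rose (median -0.28); 3 fell in the 6-pair set. Slc27a5, which activates bile acids for conjugation, had 24.2 to 82.4 (median 39.9) FPKM on day 1 and 5.01 to 21.1 (median 13.8) FPKM on day 3. Its days did not overlap, and it fell by 1.62 ± 0.21 (adjusted p = 0.00742). The basolateral bile acid importer Slc10a1 fell by 1.64 ± 0.23 (adjusted p = 0.00875) and the anion importer Slco1b2 by 1.75 ± 0.28 (adjusted p = 0.01), with day medians of 13.9 and 4.23 FPKM and of 7.90 and 1.57 FPKM. The canalicular exporter Abcb11 fell by 1.26 ± 0.23 (adjusted p = 0.0132; 6 pairs, 0.0553), whereas Abcc2, another canalicular pump, was at -0.15 ± 0.30 (adjusted p = 0.766). Of 17 glucose and glycogen genes, 5 fell and none rose (median -0.40); in the 6-pair set, 2 fell and 1 rose. They included G6pc, the phosphatase that releases free glucose (fell by 1.5 ± 0.25, adjusted p = 0.0117), the glucose transporter Slc2a2 (fell by 1.29 ± 0.17, adjusted p = 0.00829) and Slc37a4, which carries glucose 6-phosphate into the endoplasmic reticulum (fell by 0.40 ± 0.09, adjusted p = 0.0227). The call of Slc37a4 was lost without the 3, 9 or 21 h pair (adjusted p up to 0.0577) and in the 6-pair set (adjusted p = 0.0938).

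Enzymes of nitrogen metabolism split. Of 26 tested, 8 fell and 2 rose, with a median of -0.32; in the 6-pair set, 2 fell and 2 rose. Arg1 (chr10:24915221-24927484, minus strand, GRCm38), the arginase that releases urea and that some macrophages also make, had 84.3 to 204 (median 157) FPKM on day 1 and 206 to 467 (median 268) FPKM on day 3. The lowest day-3 library lay above the highest of day 1, and Arg1 rose by 1.08 ± 0.12 log2 units (adjusted p = 0.00612; 1.00 in the 6-pair set). Glul, the glutamine synthetase of pericentral hepatocytes, rose by 0.59 ± 0.16 (adjusted p = 0.0409). Gls2, the glutaminase of periportal hepatocytes, fell by 1.07 ± 0.17 (adjusted p = 0.011), Agxt, which detoxifies glyoxylate, by 0.76 ± 0.15 (adjusted p = 0.0161), and Otc, of the urea cycle, by 0.81 ± 0.23 (adjusted p = 0.048; 6 pairs, 0.164). The urea cycle enzymes Ass1, Asl and Cps1 did not pass, at -0.34, 0.09 and 0.45 (adjusted p = 0.25, 0.497 and 0.245). Read by zone, 6 of 15 periportal genes fell and 1 rose (1 and 1 in the 6-pair set), and 1 of 10 pericentral genes fell and 3 rose (1 and 2).

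Cytochrome P450 genes moved in both directions. Of 26 tested, 8 fell and 3 rose, with a median of -0.23; in the 6-pair set, 4 fell, 3 rose and the median was 0.04. Cyp2e1, the ethanol- and paracetamol-oxidising enzyme of pericentral hepatocytes, had 27.7 to 114 (median 41.9) FPKM on day 1 and 2.97 to 17.7 (median 11.5) FPKM on day 3. It fell by 2.06 ± 0.29 (adjusted p = 0.00875), with no overlap between the days. Cyp2f2, its periportal counterpart, fell by 1.59 ± 0.27 (adjusted p = 0.0112; 6 pairs, 0.0561), from a median of 23.5 FPKM (11.4 to 54.2) to one of 7.24 FPKM (1.69 to 13.2). The 3 genes that rose were those of family 1, the textbook targets of the aryl hydrocarbon receptor. Cyp1a1 had 2.70 to 27 (median 8.0) FPKM on day 1, 18.3 to 54 (median 31.3) FPKM on day 2 and 24.6 to 73.2 (median 40.0) FPKM on day 3. Only CT12 of day 1, at its maximum, reached into the range of day 3, and Cyp1a1 rose by 2.13 ± 0.30 (adjusted p = 0.00875). Cyp1a2 rose by 2.13 ± 0.42 (adjusted p = 0.0155) in 7 of 8 pairs, from a median of 6.65 FPKM (4.70 to 33.2) to one of 55.6 FPKM (4.98 to 133), and the exception was the 21 h pair, whose day-3 library CT69 held 4.98 FPKM. Cyp1b1, a member expressed mainly outside hepatocytes, rose by 1.25 ± 0.19 (adjusted p = 0.00999), from a median of 2.31 FPKM (0.517 to 4.79) to one of 7.0 FPKM (2.66 to 13.4).

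The upstream sequences of Cyp1a1 and Cyp1a2 are shown because both genes rose in WT slices and lie close together on mouse chromosome 9. Each run gives the 250 bases before the RefSeq start site (build GRCm38.p6), at chr9:57697363-57697612, plus strand, and chr9:57683656-57683905, minus strand, with TATAAA in capitals, which begins 30 and 29 bases before the start.
Cyp1a1: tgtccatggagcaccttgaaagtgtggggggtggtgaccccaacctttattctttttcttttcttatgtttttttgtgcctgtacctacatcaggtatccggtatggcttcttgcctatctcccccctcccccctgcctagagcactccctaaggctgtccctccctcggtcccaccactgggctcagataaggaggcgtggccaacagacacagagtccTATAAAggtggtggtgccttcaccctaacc
Cyp1a2: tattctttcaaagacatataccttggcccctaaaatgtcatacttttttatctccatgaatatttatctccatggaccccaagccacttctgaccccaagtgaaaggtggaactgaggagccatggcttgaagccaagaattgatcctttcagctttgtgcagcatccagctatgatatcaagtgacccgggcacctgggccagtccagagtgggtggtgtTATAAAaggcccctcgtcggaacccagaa
TATAAA was found on either strand in 14.2% of all RefSeq promoter windows (250 bases before to 50 after a start site), in 7.53% of those of the genes tested, in 8.53% of those called higher and in 10.3% of those called lower. TNGCGTG, the core of the dioxin response element, was searched after the values were known. It was in neither window of these genes, and was held by 5.12% of all windows, 8.4% of those tested, 4.96% of those called higher and 11.1% of those called lower. No match says only that these letters are not in this window.

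Only some of the acute phase genes fell. Of 17 acute phase genes 3 fell, none rose, and the median was -0.61; in the 6-pair set, 2 fell and the median was -0.11. Saa1 (serum amyloid A, an apolipoprotein of the acute phase) had 107 to 485 (median 249) FPKM on day 1 and 5.50 to 75.3 (median 33) FPKM on day 3. Its days did not overlap, and it fell by 2.94 ± 0.44 (adjusted p = 0.00972). Saa2 fell by 3.64 ± 0.52 (adjusted p = 0.00893), from a median of 189 FPKM (69.9 to 326) to one of 17.9 FPKM (1.11 to 36.3), and reads of both genes are uncertain because the copies are near-identical. C-reactive protein Crp fell by 1.35 ± 0.26 (adjusted p = 0.0153; 6 pairs, 0.0583). Lbp, which presents lipopolysaccharide, was at 0.33 ± 0.28 (adjusted p = 0.453), and haptoglobin Hp at -0.30 ± 0.43 (adjusted p = 0.657).

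Of 28 tested chemokines and cytokines, 5 rose and 5 fell, with a median of 0.03; in the 6-pair set, 2 rose and 6 fell. Those that fell were Cxcl2, Il6, Cxcl5, Cxcl9 and Cxcl1. Cxcl2, which attracts neutrophils, had 29.0 to 79.2 (median 58.3) FPKM on day 1 and 11.9 to 18.9 (median 14.7) FPKM on day 3. The days were fully apart, and Cxcl2 fell by 1.80 ± 0.18 (adjusted p = 0.00419). Il6, the cytokine that drives the hepatic acute phase, had 2.19 to 10.4 (median 6.95) FPKM on day 1 and 0.705 to 1.97 (median 1.58) FPKM on day 3. It fell by 1.49 ± 0.22 (adjusted p = 0.0097), again without overlap. Cxcl1 and Cxcl5, also neutrophil attractants, fell by 0.97 (adjusted p = 0.0267) and 1.14 (adjusted p = 0.02; 6 pairs, 0.0855), and the interferon-induced Cxcl9 by 0.99 (adjusted p = 0.0124). Those that rose were Ccl4 (1.08 ± 0.18, adjusted p = 0.0118), Ccl3 (0.87 ± 0.17, adjusted p = 0.015), Ccl6 (1.22 ± 0.24, adjusted p = 0.0164; 6 pairs, 0.0649), Ccl24 (1.02 ± 0.29, adjusted p = 0.0476; 6 pairs, 0.156) and the anti-inflammatory Il10 (1.41 ± 0.31, adjusted p = 0.0227; 6 pairs, 0.0637). Tnf was at -0.05 ± 0.13 (adjusted p = 0.829) and Ccl2, which recruits monocytes, at -0.36 ± 0.13 (adjusted p = 0.0891).

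The upstream sequences of Cxcl2 and Il6 are shown because both genes fell without overlap and hold the letters of an NF-kB site, a motif that was chosen after the values were known. They cover the 250 bases before the RefSeq start site in GRCm38.p6, at chr5:90903649-90903898, plus strand, and chr5:30012864-30013113, plus strand, with the match in capitals, beginning 97 and 44 bases before the start.
Cxcl2: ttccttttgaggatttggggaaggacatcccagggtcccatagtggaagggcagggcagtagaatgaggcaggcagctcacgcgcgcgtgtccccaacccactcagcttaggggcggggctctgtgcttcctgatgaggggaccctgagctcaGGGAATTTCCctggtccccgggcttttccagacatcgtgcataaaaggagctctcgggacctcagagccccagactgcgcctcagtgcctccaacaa
Il6: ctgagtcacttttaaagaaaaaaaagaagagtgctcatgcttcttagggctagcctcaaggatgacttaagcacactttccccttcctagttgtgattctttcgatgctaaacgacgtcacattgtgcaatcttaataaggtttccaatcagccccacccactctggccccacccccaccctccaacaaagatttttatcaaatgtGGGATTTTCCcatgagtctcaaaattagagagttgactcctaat
This motif was in 0.385% of all promoter windows, in 0.402% of those of the genes tested, in 1 of 645 windows of genes called higher (0.155%) and in 5 of 778 of genes called lower (0.643%). Among the genes named here with a promoter in the table, Slc37a4 and B2m held it too, and both were lower on day 3.

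Of the antigen presentation genes called, all but 1 were lower on day 3. Of 15 tested, 4 fell and 1 rose (median -0.14), and 3 fell and none rose in the 6-pair set. H2-K1, a class I heavy chain, had 393 to 961 (median 580.0) FPKM on day 1 and 188 to 372 (median 301) FPKM on day 3. Its days did not overlap, and it fell by 1.00 ± 0.09 (adjusted p = 0.00386). H2-D1, another class I chain, fell by 0.56 ± 0.10 (adjusted p = 0.0132), and Cd74, the class II invariant chain, by 1.05 ± 0.12 (adjusted p = 0.00615), both without overlap. The class I light chain B2m fell by 0.45 ± 0.11 (adjusted p = 0.0284), a call lost without the 0, 9, 12, 15 or 18 h pair (adjusted p up to 0.0624) and in the 6-pair set (adjusted p = 0.0866). H2-DMb1, which helps to load class II molecules, rose by 0.89 ± 0.25 (adjusted p = 0.0464; 6 pairs, 0.122). The class I genes are a family of close copies whose reads can be split. Of 16 interferon-stimulated genes 1 fell and none rose, a share close to the 7.19% of all genes.

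Macrophage and Kupffer cell genes formed the group with the largest rise. Of 18 tested, 14 rose and none fell, with a median of 1.27; in the 6-pair set, 9 rose and the median was 0.96. Lyz2, the lysozyme of myeloid cells, had 11.8 to 70.1 (median 40.3) FPKM on day 1 and 58.3 to 1021 (median 191) FPKM on day 3. Its 2 highest values were those of CT66 (1021 FPKM) and CT69 (774 FPKM), and the days overlapped slightly. Lyz2 (chr10:117277331-117282321, minus strand, GRCm38) rose by 2.67 ± 0.30 (adjusted p = 0.00612), and by 2.23 in the 6-pair set (adjusted p = 0.0225). Marco, a scavenger receptor, had 5.95 to 109.6 (median 58.1) FPKM on day 1 and 67.6 to 793 (median 189) FPKM on day 3. It rose by 2.53 ± 0.42 (adjusted p = 0.011) and was at 2.35 in the 6-pair set, where the call was lost (adjusted p = 0.0555). The complement receptor Vsig4 of Kupffer cells rose by 1.99 ± 0.31 (adjusted p = 0.00972). Cd5l, a protein secreted by Kupffer cells, rose by 2.14 ± 0.34 (adjusted p = 0.0102). Of the complement C1q chains, C1qa, C1qb and C1qc rose by 1.67 (adjusted p = 0.0127; 6 pairs, 0.0607), 1.65 (adjusted p = 0.011) and 1.77 (adjusted p = 0.0104). The Kupffer lectin Clec4f rose by 1.17 ± 0.24 (adjusted p = 0.0178; 6 pairs, 0.0714) and the ferroportin gene Slc40a1 by 1.13 ± 0.20 (adjusted p = 0.013). Cd14, a lipopolysaccharide co-receptor, and Mrc1, the mannose receptor, did not pass at 0.24 ± 0.23 and 0.78 ± 0.27 (adjusted p = 0.502 and 0.0885).

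Genes of lipid-handling and scar-associated macrophages rose in part: 6 of 13 rose, none fell and the median was 0.51, with 5 risen and a median of 0.28 in the 6-pair set. Gpnmb, a lysosomal glycoprotein, had 2.31 to 18.6 (median 8.46) FPKM on day 1 and 11 to 172 (median 29.9) FPKM on day 3. The highest values were again those of CT69 and CT66, and Gpnmb rose by 2.30 ± 0.34 (adjusted p = 0.0097). Cd36, a fatty acid and scavenger receptor, had 8.22 to 22.1 (median 13.9) FPKM on day 1 and 22.4 to 162 (median 41.3) FPKM on day 3. Here the days did not overlap, and Cd36 rose by 1.83 ± 0.25 (adjusted p = 0.00875), and by 1.43 in the 6-pair set (adjusted p = 0.0253). Mmp12, the macrophage elastase, rose by 1.85 ± 0.24 (adjusted p = 0.00742), the lipid sensor Trem2 by 1.69 ± 0.29 (adjusted p = 0.0118; 6 pairs, 0.0555) and the lysosomal protease Ctsd by 1.06 ± 0.18 (adjusted p = 0.0121). Chil3, a chitinase-like protein of macrophages, rose by 2.26 ± 0.43 (adjusted p = 0.0149), from a median of 5.33 FPKM (0.587 to 25.5) to one of 20 FPKM (2.56 to 195). Of the 13 monocyte and neutrophil markers only 5 could be tested, of which Csf3r rose and none fell. Csf3r met the minimum of 1 FPKM only through day 3, with a mean of 1.63 FPKM against 0.619 FPKM on day 1. A filter passed that way favours a rise, so this call is not support for one. The 5 markers that define these cells (Ccr2, Ly6c2, S100a8, S100a9 and Csf3r) summed to 1.68 to 10.6 FPKM on day 1 (median 6.92) and to 3.38 to 32.9 FPKM on day 3 (median 4.95), with the highest sums in CT69 (32.9 FPKM) and CT66 (15.6 FPKM). S100a8 made up most of it, with medians of 5.18 and 3.70 FPKM on the 2 days and a highest value of 30.6 FPKM, while Ccr2, Ly6c2 and S100a9 had day-3 medians of 0.0062, 0.122 and 0.122 FPKM. The part of these cells in the macrophage results was not tested.

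**Figure D3:**
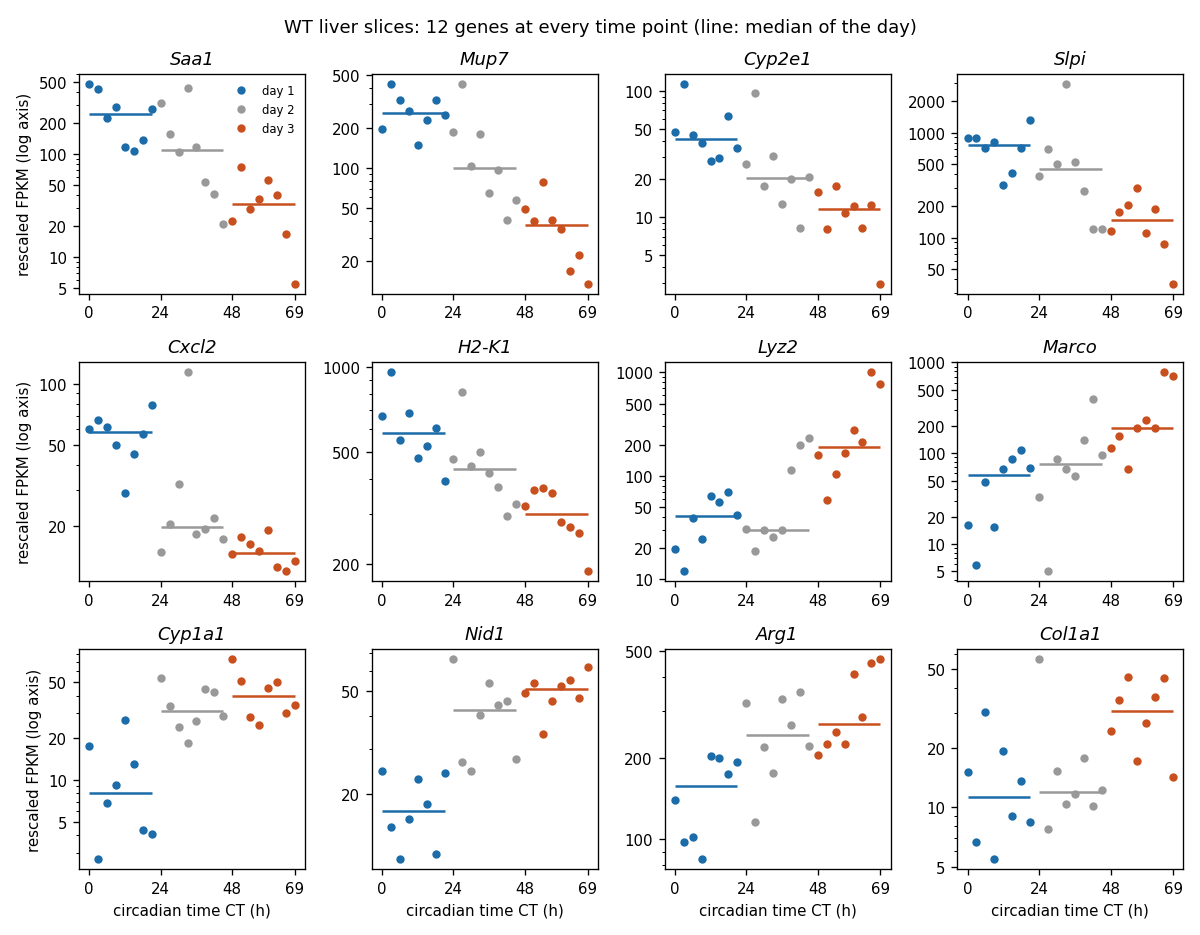
Rescaled FPKM (log axis) of 12 genes against circadian time (h) in the 24 WT slice libraries, 1 point per library, with the median of each day as a line (day 1 blue, day 2 grey, day 3 orange). The days 1 and 3 of Mup7, Saa1, Cyp2e1, Slpi, Cxcl2, H2-K1, Nid1 and Arg1 do not overlap, while Lyz2 and Marco reach their maximum at CT66.

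Collagen and matrix genes moved upwards where they were called. Of 19 collagens 8 rose and none fell, with a median of 0.65; in the 6-pair set, 1 rose and the median was 0.51. Col1a1, the main chain of fibrillar collagen I, had 5.45 to 30.5 (median 11.3) FPKM on day 1 and 14.3 to 45.6 (median 30.9) FPKM on day 3. The ranges overlapped, and Col1a1 rose by 1.21 ± 0.22 in all 8 pairs (adjusted p = 0.013; 6 pairs, 0.0526). The basement membrane chain Col4a2 rose by 0.65 ± 0.12 (adjusted p = 0.0127) and the fibrillar chain Col5a2 by 0.96 ± 0.19 (adjusted p = 0.0156; 6 pairs, 0.072). Of 25 matrix glycoproteins and crosslinkers, 11 rose and none fell (median 0.54, and 4 rose in the 6-pair set).

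Nid1 (nidogen, which links laminin to collagen IV; chr13:13437551-13512269, plus strand, GRCm38) had 11.2 to 24.7 (median 17.2) FPKM on day 1, 24.6 to 66.3 (median 42.4) FPKM on day 2 and 34.2 to 61.9 (median 50.8) FPKM on day 3. No day-1 library reached the lowest of day 3, and Nid1 rose by 1.46 ± 0.11 (adjusted p = 0.00205, the lowest over all genes tested) and by 1.40 in the 6-pair set (adjusted p = 0.015). Elastin, Eln, had 0.163 to 6.09 (median 0.244) FPKM on day 1 and 1.19 to 7.68 (median 5.16) FPKM on day 3. Only CT06 exceeded 1 FPKM on day 1, and Eln rose by 1.82 ± 0.26 (adjusted p = 0.00887). The small proteoglycan biglycan, Bgn, rose by 1.07 ± 0.15 (adjusted p = 0.00893), and the collagen crosslinker Lox by 1.40 ± 0.24 (adjusted p = 0.0118). Fibronectin, Fn1, was at 0.37 ± 0.24 (adjusted p = 0.326).

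Among 19 matrix proteases and their inhibitors, 6 rose and 1 fell (2 rose and none fell in the 6-pair set). Serpine2, an inhibitor of thrombin and plasminogen activators, had 9.89 to 22.1 (median 18.8) FPKM on day 1 and 30.7 to 40.4 (median 35.9) FPKM on day 3. It rose by 0.94 ± 0.12 (adjusted p = 0.00742) without overlap between the days. Plat, the tissue plasminogen activator, rose by 1.02 ± 0.21 (adjusted p = 0.017), also without overlap, and Adam8, a metalloprotease of activated myeloid cells, by 1.02 ± 0.18 in 7 of 8 pairs (adjusted p = 0.013; 6 pairs, 0.0571). The urokinase receptor Plaur fell by 0.60 ± 0.13 (adjusted p = 0.0185; 6 pairs, 0.0607). The growth factor Ccn2, a target of the YAP pathway, rose by 1.02 ± 0.21 in 7 of 8 pairs (adjusted p = 0.018), and was the only one of 12 YAP targets called higher, against 3 called lower (2 higher and none lower in the 6-pair set).

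Markers of the other nonparenchymal cells moved less than macrophage markers by their medians, a difference that was not tested. Of 16 stellate, fibroblast and smooth muscle markers 5 rose and 1 fell (median 0.48), and none was called in the 6-pair set. The intermediate filament gene Vim rose by 1.03 ± 0.23 (adjusted p = 0.0229; 6 pairs, 0.112) and Des, of desmin, by 0.59 ± 0.15 (adjusted p = 0.0325; 6 pairs, 0.135), whereas smooth muscle actin, Acta2, did not pass at 1.38 ± 0.43 (adjusted p = 0.0622). Rgs5, a regulator of G protein signalling in pericytes, fell by 0.96 ± 0.20 (adjusted p = 0.0183; 6 pairs, 0.0621), from a median of 13.9 FPKM (5.03 to 45.7) to one of 7.34 FPKM (4.18 to 10.1). The call of Vim was lost without the 9, 18 or 21 h pair (adjusted p up to 0.0577). The summed level of 9 stellate and fibroblast markers ran from 46.8 to 261 FPKM on day 1 (median 86.3) and from 99.3 to 312 FPKM on day 3 (median 171), and its part in the matrix changes was not tested. Of 19 endothelial markers 4 rose and none fell (median 0.35), again with no call in the 6-pair set. Cdh5, the endothelial cadherin, rose by 0.68 ± 0.16 (adjusted p = 0.0291; 6 pairs, 0.0636), a call lost without the 3, 9, 12 or 18 h pair (adjusted p up to 0.0681), and the sinusoidal receptor Lyve1 was at -0.39 ± 0.18 (adjusted p = 0.183). Of 17 biliary and progenitor markers 1 rose and 2 fell (none and 2 in the 6-pair set). Sox9, a transcription factor of bile ducts, fell by 1.01 ± 0.18 (adjusted p = 0.0121), while the duct keratins Krt19 and Krt7 were at -0.08 ± 0.30 and -0.03 ± 0.28 (adjusted p = 0.882 and 0.957).

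Hemoglobin transcripts, carried by residual red cells and reticulocytes, had the lowest median of the 40 lists. Of 5 tested erythroid genes 4 fell, with a median of -2.59, and 3 of 4 tested fell in the 6-pair set. Hbb-bs, an adult beta chain, had 13.2 to 88.6 (median 31.1) FPKM on day 1 and 0.782 to 4.71 (median 3.01) FPKM on day 3. It fell by 3.26 ± 0.42 (adjusted p = 0.00742) without overlap. The alpha chains Hba-a1 and Hba-a2, which are near-identical, fell by 2.59 ± 0.37 and 2.77 ± 0.38 (adjusted p = 0.00887 and 0.00875). Alas2, which starts heme synthesis in red cell precursors, did not pass at -0.82 ± 0.27 (adjusted p = 0.0723).

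Gstm3, a glutathione transferase, had 2.49 to 153 (median 11.9) FPKM on day 1 and 12.2 to 327 (median 159) FPKM on day 3. The values were spread widely and the days overlapped, with CT69 lowest on day 3. Its rise of 2.85 ± 0.66 (adjusted p = 0.0249; 6 pairs, 0.064) was the largest of the named genes, and the call was also lost without the 12 or 18 h pair (adjusted p up to 0.0592). Of the 19 antioxidant targets of NRF2, among them Gstm3, 4 rose and none fell, with a median of 0.12 (2 rose in the 6-pair set). The quinone reductase Nqo1 rose as well (0.43 ± 0.09, adjusted p = 0.0178; 6 pairs, 0.0714) and G6pdx, which supplies NADPH (0.40 ± 0.06, adjusted p = 0.00972). The lowest value of the named genes was that of the small nucleolar RNA Snord49a, which fell by 3.87 ± 0.94 (adjusted p = 0.0297; 6 pairs, 0.135). The FPKM of so short an RNA is uncertain, its days overlapped, and the call was lost without the 3, 12, 18 or 21 h pair (adjusted p up to 0.0676).

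Of the clock genes, repressors were lower where called. Arntl, which encodes BMAL1, had 3.6 to 4.31 (median 3.92) FPKM on day 1 and 2.93 to 6.67 (median 3.88) FPKM on day 3 in WT slices, a change of 0.06 ± 0.12 (adjusted p = 0.756). In the slices labelled Bmal1-/- it had 2.90 to 5.67 (median 4.56) and 4.28 to 6.72 (median 4.85) FPKM on the same days, so the median level of the gene was not below that of WT. Which exons were deleted is not given in the sources used here, and a value for the whole gene does not check the deletion. Of 18 clock genes 3 fell and none rose (2 in the 6-pair set): Ciart, Nr1d1 and Nr1d2, transcriptional repressors that are known targets of BMAL1 with CLOCK. Ciart had 8.14 to 12.8 (median 10.3) FPKM on day 1 and 2.94 to 7.18 (median 5.35) FPKM on day 3. It fell by 0.89 ± 0.16 (adjusted p = 0.0127) without overlap. Nr1d1, of REV-ERB alpha, fell by 0.60 ± 0.11 (adjusted p = 0.013), also without overlap, and Nr1d2, of REV-ERB beta, by 0.46 ± 0.10 (adjusted p = 0.021; 6 pairs, 0.0938), a call also lost without the 21 h pair (adjusted p = 0.0511). Per1, Per2 and Dbp, further targets of BMAL1, were at -0.19 ± 0.07, -0.15 ± 0.09 and -0.22 ± 0.10 (adjusted p = 0.0971, 0.289 and 0.173). In slices labelled Bmal1-/-, Ciart, Nr1d1 and Nr1d2 were at -0.61 ± 0.15, -0.17 ± 0.14 and -0.40 ± 0.12 (adjusted p = 0.0738, 0.548 and 0.101). Without CT09 and CT57 of those slices, Nr1d2 was called lower (adjusted p = 0.0396), and Ciart and Nr1d1 were not (0.0843 and 0.713). The difference between genotypes passed for none of the 3 (adjusted p = 0.708, 0.363 and 0.927). The part of BMAL1 in these falls was not tested.

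The sequence upstream of Ciart, at chr3:95882229-95882478, minus strand in GRCm38.p6, is shown for its 3 copies of the E-box CACGTG (capitals), the letters that BMAL1 with CLOCK binds, which begin 116, 58 and 44 bases before the start site.
Ciart: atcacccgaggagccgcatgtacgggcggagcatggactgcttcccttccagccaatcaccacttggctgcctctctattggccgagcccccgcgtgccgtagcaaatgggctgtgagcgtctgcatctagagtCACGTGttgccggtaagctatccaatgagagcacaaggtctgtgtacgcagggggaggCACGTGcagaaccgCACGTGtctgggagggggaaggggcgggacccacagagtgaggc
CACGTG was in 7.24% of all promoter windows, 10.4% of those of the genes tested, 7.29% of those called higher and 12.9% of those called lower. Of the named genes with a promoter sequence, Slpi, which fell, and Rpl23, which rose, held it too. The windows of Nr1d1 and Nr1d2 did not hold it. In all, 7 motifs were searched on both strands in the windows of 9460 tested genes, of which 645 were called higher and 778 lower. The AP-1 site TGANTCA was in 7.93% of all windows, 5.18% of those tested, 6.51% of those called higher and 5.27% of those called lower. The interferon response element, a repeat of GAAA with 2 bases of any kind between, gave 3.49%, 2.97%, 3.57% and 3.08% in the same order. The palindromic HNF1 site was in 2 of 27025 windows and in none of the genes tested. These shares are descriptions, and none of the sequences is shown to be a bound site.

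Lists of general cell function gave the following counts, beside 6.34% higher and 7.19% lower over all genes. Of 24 cytosolic ribosomal protein genes 1 rose and none fell (median 0.09), and of 24 nuclear genes of oxidative phosphorylation none was called (median 0.02). Atp5b, a subunit of ATP synthase, was at -0.10 ± 0.07 (adjusted p = 0.359). Of 19 hepatocyte transcription factors, 1 fell and none rose, with a median of -0.08: Onecut2 fell by 0.85 ± 0.16 (adjusted p = 0.0146), while Hnf4a and Cebpa, regulators of hepatocyte identity, were at -0.21 ± 0.32 and 0.13 ± 0.11 (adjusted p = 0.676 and 0.451). Of 15 glucocorticoid response genes 1 fell and none rose, and the widely used markers Fkbp5 and Tsc22d3 were at 0.50 ± 0.19 and 0.29 ± 0.17 (adjusted p = 0.108 and 0.269). Of 20 hypoxia and glycolysis genes 1 fell and none rose: Vegfa, the endothelial growth factor, fell by 0.67 ± 0.08 (adjusted p = 0.00742). Of 20 cell division genes 1 fell, and of 15 p53 targets and cell cycle inhibitors 3 rose and 1 fell. Cdkn1b, which encodes a cell cycle inhibitor, rose by 0.36 ± 0.07 without overlap between the days (adjusted p = 0.0153; 6 pairs, 0.0529). Lipid synthesis genes were lower where called: 2 of 14 lipogenesis genes fell and none rose, among them fatty acid synthase, Fasn (fell by 0.68 ± 0.11, adjusted p = 0.011, with no overlap), and 1 of 17 cholesterol genes fell. Of 14 housekeeping genes 1 rose and 2 fell, including the transferrin receptor Tfrc (fell by 0.67 ± 0.10, adjusted p = 0.00893, with no overlap). Of 20 genes of fatty acid oxidation 1 rose, of 19 of the integrated stress and unfolded protein responses 1 rose and 1 fell, and of 14 heat shock genes 1 rose. Of the 20 lymphocyte genes only Ccl5 could be tested, and it fell by 1.67 ± 0.38 (adjusted p = 0.0238; 6 pairs, 0.0565). No call was made among 5 fetal and imprinted liver genes and 2 mesothelial markers that could be tested.

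The share of genes called lower was larger among abundant transcripts. To take the level from libraries outside the comparison, genes were binned by their mean in the slices labelled Bmal1-/-. Of 533 genes with a mean under 1 FPKM there, 9.94% rose and 1.5% fell in WT slices. Of 5152 genes from 5 to 20 FPKM, 6.41% rose and 7.24% fell. Of 176 genes with 500 FPKM or more, 3.41% rose and 17% fell. Genes of the lowest bin entered only through their level in WT slices, and log2(FPKM + 1) understates changes of genes near 1 FPKM; the part of either was not tested.

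**Figure D4:**
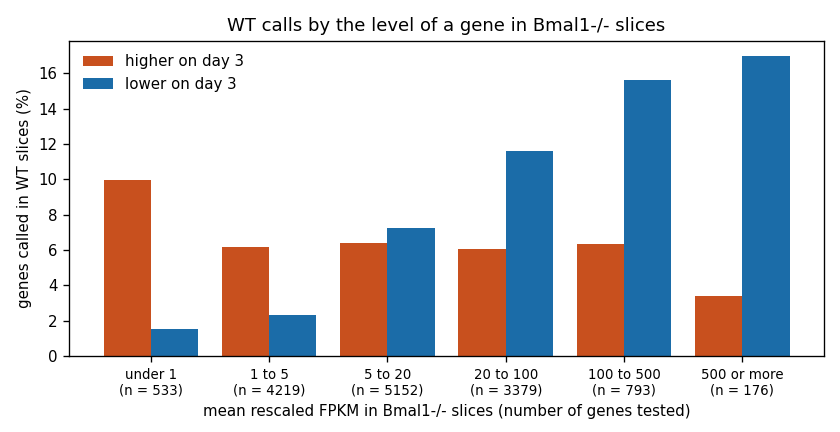
Percentage of tested genes called higher (orange) or lower (blue) on day 3 in WT slices, in bins of the gene's mean rescaled FPKM in slices labelled Bmal1-/-. The share called lower climbs from 1.5% in the lowest bin to 17% in the highest.

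Day 2 (CT24 to CT45) lies between the days compared. In a fit of all 24 WT libraries, 21 genes were higher (0.147%) and 52 lower (0.365%) on day 2 than on day 1, and 298 were higher (2.09%) and 173 lower (1.21%, or 3.31% either way) on day 3 than on day 2. These contrasts share the day-2 libraries with each other and the outer days with the comparison above. Day-2 medians of Cyp1a1, Nid1 and Arg1 were 31.3, 42.4 and 244 FPKM, beside 8.0, 17.2 and 157 FPKM on day 1 and 40.0, 50.8 and 268 FPKM on day 3. From day 1 to day 2 these genes rose by 1.83, 1.12 and 0.74 (adjusted p = 0.0185, 0.0134 and 0.0393), and from day 2 to day 3 they were at 0.29, 0.33 and 0.34 (adjusted p = 0.554, 0.19 and 0.175). Medians of Lyz2, Gpnmb and Col1a1 were 29.9, 8.67 and 11.9 FPKM on day 2, beside 40.3, 8.46 and 11.3 FPKM on day 1, and the step to day 3 was 2.07, 1.79 and 0.93 (adjusted p = 0.0208, 0.0224 and 0.0793). Within day 2, Lyz2 was at 18.6 to 30.1 FPKM from CT24 to CT36 and at 115 to 231 FPKM from CT39 to CT45. Saa1 and Mup7 (chr4:60066469-60070475, minus strand, GRCm38) had day-2 medians of 110.5 and 99.7 FPKM, between those of the outer days. The counts of both steps rested on few libraries: that of day 2 against day 1 was 0 in limma without the 0 or 15 h libraries (2004 and 1918 genes at an unadjusted p below 0.05) and 128 higher and 181 lower without those of 21 h, and it was 1 to 4 higher and 0 to 22 lower without those of 6, 9, 12 or 18 h and 26 lower without those of 3 h. That of day 3 against day 2 was 0 without the 3, 9 or 12 h libraries (2880, 2769 and 2902 at an unadjusted p below 0.05) or without CT66 and CT69 (2508). It was also 0 without phase as a block (2418) and 13 higher and 0 lower with no filter on low values. It was 756 higher and 560 lower without those of 6 h, and 30 to 140 higher and 5 to 107 lower without those of 0, 15, 18 or 21 h.

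The closest comparison in the series is the same pair of days in slices labelled Bmal1-/-, which share no library with WT. There 92 genes rose (0.635%) and 160 fell (1.10%, or 1.74% either way) of 14489 tested. Of the genes called higher in WT, 730 of 848 tested there were also higher on day 3, with a median of 0.26, and 45 were called (4.98% of the WT list and 48.9% of the other). Of those called lower, 942 of 1015 were also lower, with a median of -0.34, and 100 were called (9.76% and 62.5%). No gene was called in opposite directions. Over all 14489 genes tested there the median change was 0.00012, and the share of them that was higher or lower was not counted. The test of the difference between genotypes, an interaction of day and genotype over 32 libraries, called 0 of 14499 genes (lowest adjusted p = 0.0656; 1637 at an unadjusted p below 0.05, 725 by chance). It called 1 gene higher and 2 lower without the 6 h libraries and 1 and 1 without those of 9 h. The counts in slices labelled Bmal1-/- moved to 290 higher and 504 lower without CT09 and CT57, to 0 without the 15 h libraries (2223 at an unadjusted p below 0.05), to 4 to 30 higher and 4 to 56 lower without those of 0, 3, 12, 18 or 21 h, and to 49 higher without those of 6 h.

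Secreted hepatocyte proteins had a median of -1.56 in slices labelled Bmal1-/- against -1.32 in WT, with none called there, and erythroid genes -2.30 against -2.59, with 3 called lower. Without CT09 and CT57 of those slices the secreted proteins had a median of -1.22 and 16 were called lower. Saa1 changed by -2.13 ± 0.29 there (adjusted p = 0.0199), Il6 by -1.51 ± 0.18 (adjusted p = 0.0124), Cyp1a1 by 2.03 ± 0.39 (adjusted p = 0.0413) and Cd36 by 1.10 ± 0.20 (adjusted p = 0.0363). The WT minus Bmal1-/- difference was -0.81 (95% interval -2.0 to 0.38) for Saa1, 0.02 (95% interval -0.60 to 0.63) for Il6, 0.10 (95% interval -1.0 to 1.19) for Cyp1a1 and 0.73 (95% interval 0.01 to 1.45) for Cd36, with intervals that are not adjusted for the number of genes. The adjusted p of these differences was 0.635, 0.993, 0.968 and 0.43. Macrophage markers had a median of 0.35 there against 1.27 in WT, collagens -0.29 against 0.65, and stellate markers -0.59 against 0.48, with none called in slices labelled Bmal1-/- (1 macrophage marker was called higher there without CT09 and CT57). The difference was 2.27 (95% interval 1.46 to 3.08) for Lyz2 (adjusted p = 0.104), 1.83 (95% interval 1.11 to 2.54) for Eln (adjusted p = 0.104), 1.58 (95% interval 0.64 to 2.52) for Col1a1 (adjusted p = 0.214) and 2.17 (95% interval 0.86 to 3.48) for Cyp1a2 (adjusted p = 0.214). None of these passed the test over all genes, so a genotype difference is not shown for them, and a p above the threshold does not show that the genotypes acted alike. The genes of this paragraph were named by their change in WT slices, which is part of the difference. Differences can therefore be overstated, and the intervals are not adjusted for that choice.

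Of the 24 libraries of slices labelled Bmal1-/-, CT09 had the lowest median correlation with the others, at 0.852 against 0.863 to 0.923. It was listed at 0 FPKM for Mup7, against 105 to 433 FPKM in the other 7 libraries of day 1, and at 2357 FPKM for Ces1c, against 135 to 618 FPKM. Mup7 was lower on day 3 in the other 7 pairs, and without CT09 and CT57 it changed by -1.63 ± 0.29 (adjusted p = 0.0271), against -0.62 ± 0.91 over all 8 pairs (adjusted p = 0.744). Mup14, also listed at 0 FPKM in CT09, was at -1.23 without that pair and at -0.82 with it (adjusted p = 0.0557 and 0.346). Ces1c was at -1.56 without it and at -1.97 with it (adjusted p = 0.0381 and 0.0636). The cause was not tested.

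**Figure D5:**
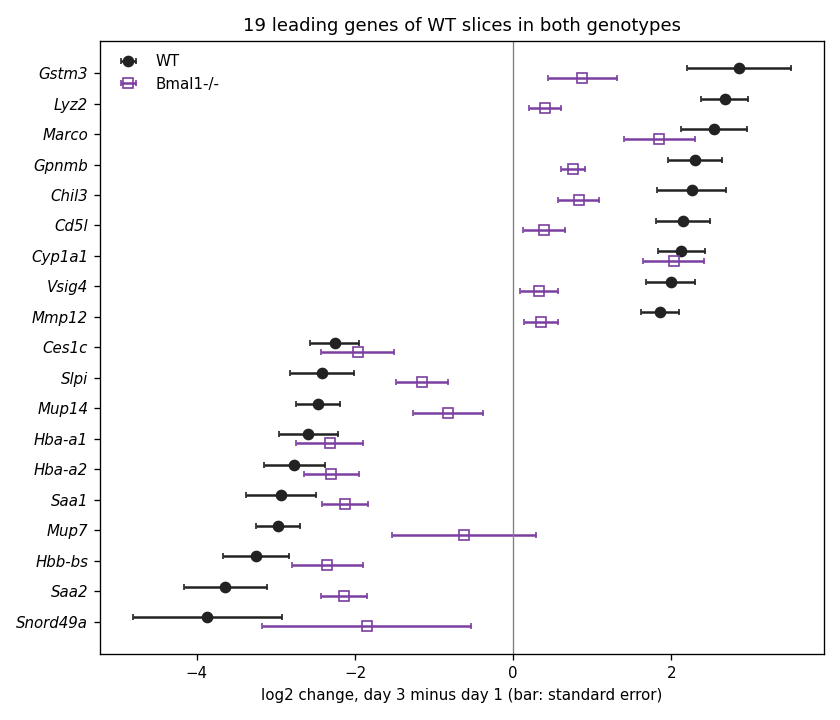
Log2 change (day 3 minus day 1) with its standard error for genes chosen by their change in WT slices: called, at 5 FPKM or more on one of the days, and moved the same way in all 8 pairs. Shown are 9 of the 10 such genes with the largest rise (1 is not reported here) and the 10 with the largest fall, in WT (black circles) and in slices labelled Bmal1-/- (open purple squares). All 19 lie on the same side of 0 in both genotypes, with Cyp1a1 at 2.13 and 2.03 and Mup7 at -2.97 and -0.62 (-1.63 in slices labelled Bmal1-/- without CT09 and CT57). The share of all genes tested that did so was not counted. In slices labelled Bmal1-/-, only Gpnmb, Cyp1a1, Saa1, Saa2, Hbb-bs, Hba-a1 and Hba-a2 of these genes were called over all 8 pairs. Snord49a had a median of 0 FPKM there on both days.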

How the data were processed

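Poly(A) RNA of liver slices was sequenced as 50 bp single-end reads, per the labels' protocols. TopHat (TopHat2 2.1.0) and Cuffdiff and the build GRCm38 are named in the submitters' processing notes. The authors deposited FPKM values per gene, with 1 column per time point and genotype for 3 runs each; how the runs were combined is not stated by any source used here, and depth is unknown.

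The columns were rescaled by the median of ratios over 15106 genes above 0 in all 48 slice columns (factors of the 16 WT columns 1.14 to 1.17), and genes averaging 1 FPKM or more over the columns fitted were kept. Differences were fitted on log2(FPKM + 1), which understates changes of low genes, with limma 3.58.1 (R 4.3.3, moderated with a mean trend), phase as a block and Benjamini-Hochberg adjustment over all genes tested. Day 2 entered a fit of 24 columns, and the genotype difference a fit of 32. All adjusted p-values are limma's, 2-sided, and called means below 0.05. The script was tested on simulated data. Alternatives were other scalings, pseudocounts, filters, no block, fewer libraries and each pair left out.

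Members and the 40 gene lists (744 genes, some shared) were chosen with earlier results of these data known. By rule, 96 genes were named: the 10 highest and 10 lowest changes among called genes with at least 5 FPKM in the higher day and 1 direction in all 8 pairs, leaving out numbered gene models; up to 3 called members of each list by smallest p; for a list with none, its most abundant member; and Arntl. Not all of them are reported here. Other genes named were picked from the lists after their values were seen. Gene positions are from GENCODE on GRCm38, and promoter sequences from RefSeq (GRCm38.p6), matched by symbol for 9460 of 14214 tested symbols.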

Additional observations from a re-analysis of the deposited data

Results flagged for a closer look

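In each day's 8 WT libraries, 12 of 192 groups of values (96 named genes on 2 days) held a library far from the others. The rule was a gap of over 0.526 of the range, both on the log2(FPKM + 1) scale, while the values below are in FPKM. Chance flags about 1 in 20, or 9.6. On day 3, CT69 was the lowest in 6 of them. Gstm3 was at 12.2 FPKM there, against 79.2 to 327 FPKM in the other 7 libraries. Cyp2e1 was at 2.97 FPKM against 8.11 to 17.7, and Cyp2f2 at 1.69 FPKM against 5.75 to 13.2. Gls2 was at 2.70 FPKM against 5.96 to 11, G6pc at 0.242 FPKM against 1.51 to 3.13, and Il6 at 0.705 FPKM against 1.41 to 1.97. On day 1, CT03 was the highest for Agxt at 23.3 FPKM (others 6.13 to 11.4), for Tfrc at 45.7 FPKM (others 23.9 to 31.0) and for Nr1d2 at 11.6 FPKM (others 8.36 to 9.72). CT06 was the highest for Eln at 6.09 FPKM (others 0.163 to 0.633) and CT18 for Csf3r at 2.1 FPKM (others 0.0603 to 0.592). CT21 was the lowest for Serpine2 at 9.89 FPKM (others 17.7 to 22.1).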

How the results depend on the processing

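None of the 92 named genes called reversed its direction under any alternative run. These runs used the same libraries or some of them, for genes already called, so a kept direction is not separate support. Deposited FPKM without rescaling, a pseudocount of 0.1 and a mean of at least 5 FPKM kept the day 3 against day 1 counts within 1.5 times of 903 higher and 1025 lower, as did quantile normalization (990 and 900). The counts moved to 494 higher and 664 lower with no filter on low values, to 1375 higher when all 24 WT libraries entered the fit, to 144 and 168 with a log2 change of at least 1, to 252 and 358 without CT66, CT69, CT18 and CT21, to 0 and 0 with the phases 0, 6, 12 and 18 h alone (4 pairs; 1867 at an unadjusted p below 0.05), and to 9 and 46 with the phases 3, 9, 15 and 21 h alone. Leaving out 1 pair gave 433 to 901 higher and 550 to 988 lower. Of the 92 named genes called, 68 kept the call whichever pair was left out and 24 lost it for at least 1 pair; 34 lost it without CT66, CT69, CT18 and CT21. Day 2 against day 1 gave 9 and 28 with no filter, 69 and 97 without CT66 and CT69, and 0 to 128 higher and 0 to 181 lower on leaving out 1 phase. Day 3 against day 2 gave 13 and 0 with no filter, 0 and 0 without CT66 and CT69, and 0 to 756 higher and 0 to 560 lower on leaving out 1 phase. The slices labelled Bmal1-/- gave 11 and 31 with no filter, 290 and 504 without CT09 and CT57, and 0 to 290 higher and 0 to 504 lower on leaving out 1 phase; these alternatives, and the list counts of the 6-pair set, were chosen after seeing the data. The genotype difference gave 0 to 1 higher and 0 to 2 lower on leaving out 1 phase. Fewer pairs leave fewer degrees of freedom; beyond that the cause was not tested. The depth behind the FPKM values is unknown, so its limits cannot be stated.

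Pairing by phase was weak: deviations of the 8 day-1 and day-3 libraries from their day means correlated at -0.025 to 0.202 for the same phase, over 0.1 in 3 of 8 pairs, and only at 18 and 21 h was the same phase the closest of 8. Without the replicate block, day 3 against day 1 gave 586 higher and 930 lower genes, and day 3 against day 2 gave 0 and 0 (2418 at an unadjusted p below 0.05), where the block gave 298 and 173. Without the block, 21 of the 92 named genes called lost the call. Those calls rest on the pairing, which was weak, and the cause of the loss was not tested.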

Other observations

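Other named members of the lists gave the following values in WT slices. Aqp1, a water channel of bile ducts and endothelium, rose by 1.19 ± 0.31 log2 units (adjusted p = 0.0382; 6 pairs, 0.143), from a median of 14.7 FPKM (8.43 to 38.6) to one of 35.0 FPKM (20.2 to 88.4). Csf3r, the receptor for granulocyte colony-stimulating factor, rose by 0.71 ± 0.15 (adjusted p = 0.0182), from a median of 0.501 FPKM (0.0603 to 2.1) to one of 1.54 FPKM (0.721 to 3.51). It met the minimum of 1 FPKM only through day 3, and was under it, so not tested, in the 6-pair set. Cryab, a small heat shock protein, rose by 0.51 ± 0.12 (adjusted p = 0.0285; 6 pairs, 0.118) and Phgdh, which starts serine synthesis, by 0.39 ± 0.10 (adjusted p = 0.0348; 6 pairs, 0.131). Angptl4, a secreted inhibitor of lipoprotein lipase that responds to glucocorticoids and fasting, fell by 0.48 ± 0.12 (adjusted p = 0.0329; 6 pairs, 0.0675), Scd1, the stearoyl-CoA desaturase, by 1.31 ± 0.30 (adjusted p = 0.0243; 6 pairs, 0.103), and Ccnd1, cyclin D1, by 0.48 ± 0.13 (adjusted p = 0.0458; 6 pairs, 0.152). The days of Rpl23, a ribosomal protein gene that rose by 0.44 ± 0.12 (adjusted p = 0.0463; 6 pairs, 0.133), did not overlap. Of these genes, at least 1 pair left out ended the call of Aqp1, Cryab, Phgdh, Angptl4, Scd1, Ccnd1 and Rpl23, for Rpl23 whichever pair was left out.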
